A study of Rattus norvegicus with 3 samples.

Results

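p53 targets and growth arrest genes were followed in rat medullary thick ascending limb (mTAL). It is the tubule segment of the renal outer medulla that takes up sodium chloride without water. The list held 9 gene symbols, and its members were all probe sets for which the array annotation gave one of them as the only symbol. This gave 10 probe sets of 7 genes, out of 20826 probe sets and 14217 genes with a single symbol. Mdm2 had 3 probe sets, Cdkn1a had 2, and Ccng1, Gadd45a, Gadd45b, Gadd45g and Btg1 had 1 each. Bax shared its probe set with another symbol, Btg2 had no probe set with this symbol alone, and both are not analysed here.

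The 3 samples formed 1 group of male Sprague-Dawley rats aged 7 to 8 weeks, each hybridised to 1 Affymetrix array, with no other tissue or treatment for comparison. All rats received 250 units of heparin and 1 mg of furosemide, a loop diuretic that blocks the main transporter of this segment, 30 min before decapitation. The kidneys were perfused with collagenase (1 mg/ml) and hyaluronidase (0.5 mg/ml), the outer medulla was digested for a further 60 min, and tubules were separated on 33.3% Percoll. Whether each sample is 1 rat or a pool is not in the labels, so a p-value here reflects the spread among 3 samples that could be technical. All 14 measured thick ascending limb markers were above the detection cutoff, including Umod, Egf and Slc12a1.

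The transcription factor p53 is kept scarce in unstressed cells by MDM2, a ubiquitin ligase whose own gene p53 switches on. When DNA is damaged, p53 accumulates and raises CDKN1A (p21), which blocks cyclin-dependent kinases, and cyclin G1, which brings a phosphatase to MDM2. The 3 small acidic GADD45 proteins bind the kinase MAP3K4, PCNA and cell cycle kinases, and answer DNA damage, cytokines and, in cultured cells of the renal medulla, high salt. BTG1 belongs to a family that slows proliferation by binding the CCR4-NOT complex, which removes the poly(A) tails of mRNAs.

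The sequences around the starts of 2 classic p53 targets are shown because both hold the p53 decamer, the motif that makes up each part of a full p53 site. The windows are RefSeq sequence of rat build GRCr8, from 250 bases before to 50 bases after the annotated start of transcription, and capitals mark the decamer. The Cdkn1a window is chr20:7150682-7150981 on the plus strand, and the Ccng1 window is chr10:25684827-25685126 on the minus strand.
Cdkn1a: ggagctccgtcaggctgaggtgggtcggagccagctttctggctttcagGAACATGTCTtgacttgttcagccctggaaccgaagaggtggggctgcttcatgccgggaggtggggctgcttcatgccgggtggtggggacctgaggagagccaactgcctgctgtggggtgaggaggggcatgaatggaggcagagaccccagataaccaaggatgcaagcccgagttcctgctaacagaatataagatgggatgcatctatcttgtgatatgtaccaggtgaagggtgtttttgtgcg
Ccng1: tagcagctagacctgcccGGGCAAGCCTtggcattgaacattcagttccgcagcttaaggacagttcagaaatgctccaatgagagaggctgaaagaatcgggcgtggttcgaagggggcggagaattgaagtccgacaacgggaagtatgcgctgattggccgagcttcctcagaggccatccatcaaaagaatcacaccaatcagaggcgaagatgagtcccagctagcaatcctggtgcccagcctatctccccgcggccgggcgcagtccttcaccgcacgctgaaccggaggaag

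The decamer began at position -201 of Cdkn1a and -232 of Ccng1, counted from the start of transcription. Searched on both strands, it was found in 3 of the 7 member windows, against 7.98% of 33469 windows of the same length in the table. The start used for Cdkn1a, Mdm2 and Gadd45b was not the outermost end of the annotated gene. In the Btg1 window, not printed here, the bases from the annotated start on begin with ATG and continue as an open reading frame. That start may thus be the start of translation, and the bases before it may include transcribed sequence. A match describes letters and is no measurement of binding.

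The windows of the 3 Gadd45 genes are shown side by side because these relatives differed in how steady their signals were. Whether the letters of the windows bear on that spread was not tested. Capitals mark the octamer ATTTGCAT, the CCAAT box and, in Gadd45a, the p53 decamer. They lie at chr4:97486750-97487049, chr7:9430669-9430968 and chr17:13530302-13530601 for Gadd45a, Gadd45b and Gadd45g, all on the minus strand.
Gadd45a: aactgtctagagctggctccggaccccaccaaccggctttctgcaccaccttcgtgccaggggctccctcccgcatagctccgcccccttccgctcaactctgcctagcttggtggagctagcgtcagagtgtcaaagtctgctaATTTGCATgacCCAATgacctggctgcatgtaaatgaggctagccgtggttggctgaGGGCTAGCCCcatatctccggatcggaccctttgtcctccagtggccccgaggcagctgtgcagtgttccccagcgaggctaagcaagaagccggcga
Gadd45b: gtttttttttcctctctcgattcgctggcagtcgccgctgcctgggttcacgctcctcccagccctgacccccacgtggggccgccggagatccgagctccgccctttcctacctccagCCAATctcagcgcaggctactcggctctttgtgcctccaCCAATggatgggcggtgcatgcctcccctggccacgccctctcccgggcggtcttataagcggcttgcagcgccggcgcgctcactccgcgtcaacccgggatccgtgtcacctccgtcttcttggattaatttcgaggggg
Gadd45g: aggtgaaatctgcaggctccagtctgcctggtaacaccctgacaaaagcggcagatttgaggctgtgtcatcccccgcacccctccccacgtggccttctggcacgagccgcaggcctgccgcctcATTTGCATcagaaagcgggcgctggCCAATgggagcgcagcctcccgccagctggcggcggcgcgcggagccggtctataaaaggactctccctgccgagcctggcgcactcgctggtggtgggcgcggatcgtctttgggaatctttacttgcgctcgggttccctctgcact

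The octamer, the letters bound by POU factors, stood in the windows of Gadd45a and Gadd45g and in 1.78% of all windows, but had no match in that of Gadd45b. All 3 windows held a CCAAT box, as did 5 of the 7 members and 37.5% of all windows. The TATA box TATAAA was matched in Gadd45g alone among the members, against 14.2% of all windows. The E-box CACGTG stood in Gadd45b and Gadd45g, and in 6.42% of all windows. The GC box GGGCGG was found in 5 of 7 members and in 33.1% of all windows. The CArG box, the cyclic AMP response element TGACGTCA and the NF-kappaB site had no match in any of the 7 windows, and occurred in 1.64%, 1.83% and 4.18% of all windows. None of the motifs overlapped another in the windows printed here. The motifs were searched on both strands and were chosen after the sequences had been seen.

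**Figure D1:**
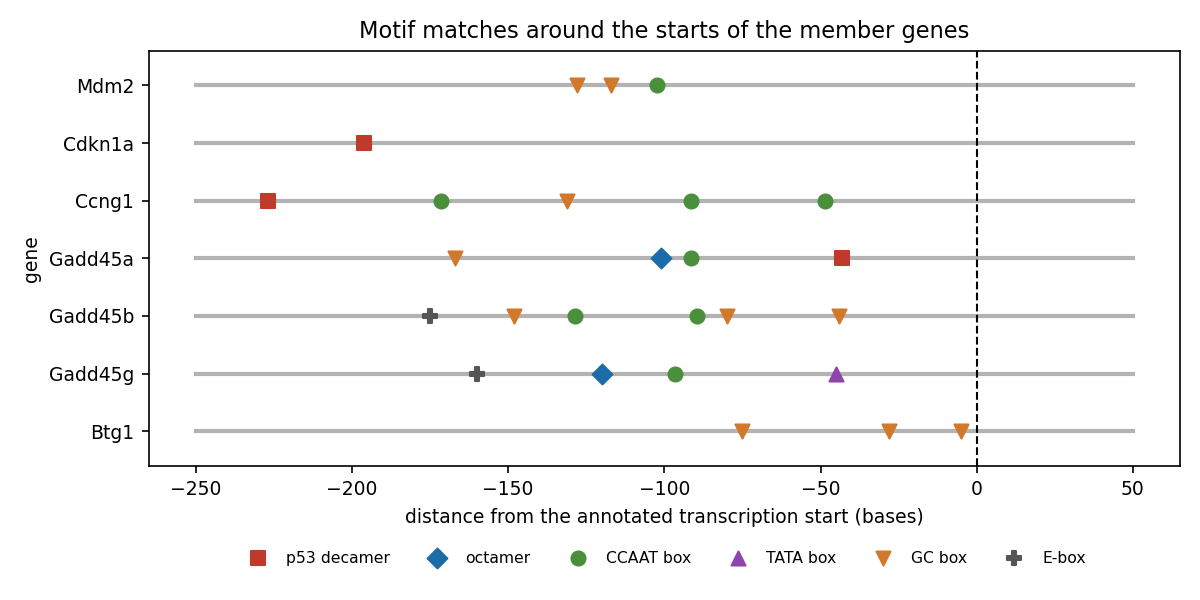
Motif matches around the annotated starts of the 7 member genes, with distance from the start in bases on the x axis and 1 gene per row. Each symbol is the middle of a match on either strand. The p53 decamer appears in Cdkn1a, Ccng1 and Gadd45a, and the octamer in Gadd45a and Gadd45g. The annotated start of Btg1 may be that of translation.

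Transcripts of all 7 measured genes were detected in the mTAL by at least 1 probe set. Values are linear signals of probe sets in arbitrary units, given for replicates 1, 2 and 3 and as mean ± SD (n = 3). A probe set was called above background when its log2 signal exceeded the 95th percentile of 73 genes known from other tissues on the same array, a cutoff of 527, 507 and 499 on replicates 1, 2 and 3 (limma, one-sided, adjusted p under 0.05 over all 20826 probe sets). By this test 8 of the 10 member probe sets were above the cutoff, against 39.8% of all probe sets. Counted by the brightest probe set of each gene, 7 of 7 were above it, against 48.1% of all genes. The median member lay 2.89 log2 units above the cutoff, and the median of all probe sets at -0.27. Hybridisation efficiency varies from probe set to probe set, so the signals below do not rank the transcripts by abundance.

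**Figure D2:**
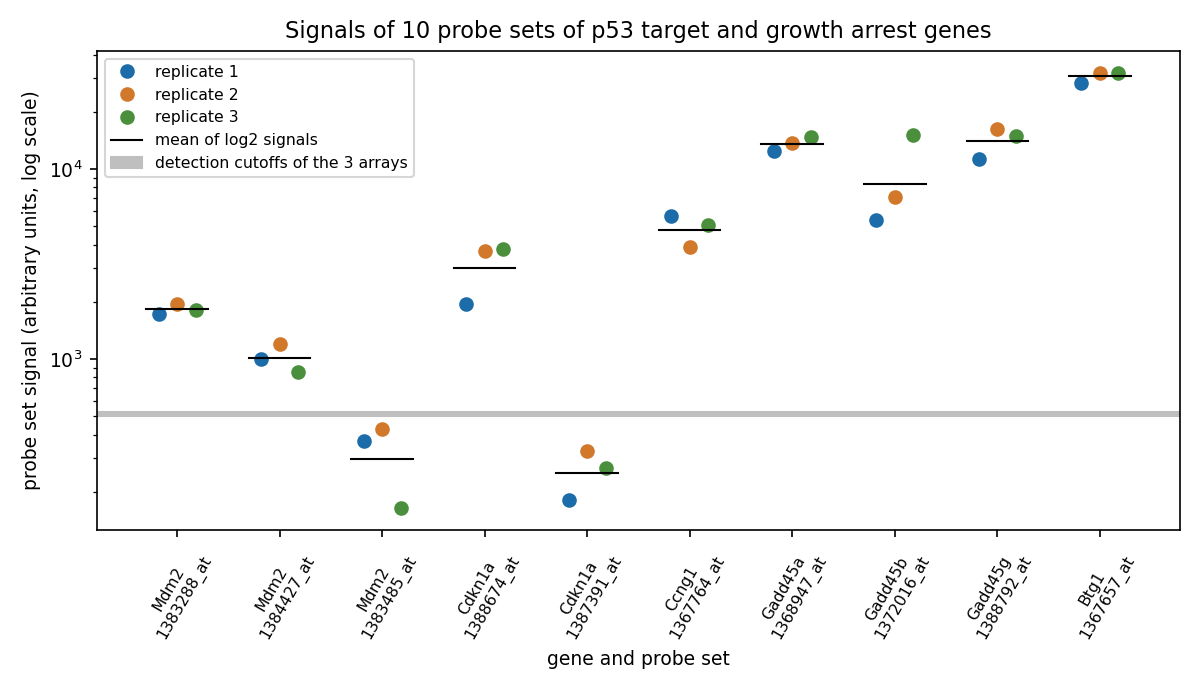
Signals of the 10 member probe sets on a log axis, in arbitrary units, with 1 point per array and a bar at the mean of the log2 signals. The grey band spans the detection cutoffs of the 3 arrays, from 499 to 527. Of the 10 probe sets, 8 lie above the band on all 3 arrays, and 1 each of Mdm2 and Cdkn1a lie below it on all 3.

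Mdm2, the gene of the ligase that holds p53 in check, was read by 3 probe sets that disagreed in their calls. The probe set 1383288_at had signals of 1718, 1957 and 1803 (1826 ± 121), 1.84 log2 units above the cutoff (limma adjusted p = 0.000634). The probe set 1384427_at had signals of 999.6, 1198 and 856 (1018 ± 172), 0.98 above it (limma adjusted p = 0.00646). The probe set 1383485_at had signals of 368, 428 and 164 (320 ± 138), below the cutoff on all 3 arrays. The first was the steadiest of the 3, with an SD of 0.09 log2 units, and the highest and lowest arrays differed by 1.14-fold. Which part of the transcript each probe set reads is not given in the sources used here.

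Cdkn1a, which encodes the kinase inhibitor p21, was also read differently by its 2 probe sets. The signals of 1388674_at were 1956, 3697 and 3777 (3143 ± 1029), 2.56 log2 units above the cutoff (limma adjusted p = 0.00259). Those of 1387391_at were 181, 326 and 267 (258 ± 73.2), below the cutoff on all arrays. Although they differed in level, both probe sets had their lowest signal on replicate 1. Relative to the median probe set of each array, replicate 2 exceeded replicate 1 by 0.81 log2 units on the first and by 0.74 on the second. For replicate 3 minus replicate 1 the differences were 0.90 and 0.52.

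Ccng1, the gene of cyclin G1, was well above the cutoff and followed another order of arrays. Its signals were 5633, 3868 and 5066 (4855 ± 901), 3.23 log2 units above the cutoff (limma adjusted p = 0.000364). Here replicate 2 was the lowest and replicate 1 the highest, a spread of 1.46-fold. The detected probe sets of Mdm2, Cdkn1a and Ccng1 thus had no common order of arrays. Mdm2 (1383288_at, a spread of 1.14-fold) and Cdkn1a (1388674_at) were lowest on replicate 1, and Mdm2 (1384427_at) on replicate 3.

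All 3 Gadd45 genes, whose proteins act in stress kinase signalling and in arrest, were strongly detected. Gadd45a had signals of 12418, 13739 and 14667 (13608 ± 1130), 4.73 log2 units above the cutoff (limma adjusted p = 0.000226). Gadd45g had signals of 11265, 16300 and 14996 (14187 ± 2614), 4.78 above it (limma adjusted p = 0.000255). Gadd45b had signals of 5405, 7103 and 15118 (9209 ± 5188), 4.03 above it (limma adjusted p = 0.00169). Gadd45a was nearly level across the arrays, with 1.18-fold between the highest and the lowest, and Gadd45g spanned 1.45-fold. Gadd45b spanned 2.80-fold, with replicate 3 far above the others, and its SD of 0.77 log2 units was larger than that of 97.8% of the 9693 probe sets that lay above the cutoff on average over the arrays. The SD of Gadd45a exceeded that of 33.0% of these probe sets.

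Btg1, the antiproliferative partner of the CCR4-NOT complex, was among the brightest probe sets on the array. Its signals were 28331, 32052 and 32236 (30873 ± 2203), 5.91 log2 units above the cutoff (limma adjusted p = 0.000225). Its mean log2 signal was higher than that of 99.6% of all probe sets tested, and that of Gadd45g was higher than 98.1%. The arrays differed by 1.14-fold, with replicate 1 the lowest.

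The count of detected members rested on where the cutoff was set. When the 99th percentile of these genes was used instead, 3 of 10 member probe sets were above it, those of Gadd45a, Gadd45g and Btg1, against 3.43% of all probe sets. That percentile lies between the brightest of the other-tissue genes, Myh1 (42933 ± 2949), and the next, Cela1 (1800 ± 324). With Myh1 left out of the list and the cutoff at the 95th percentile, 8 of 10 member probe sets were called, against 44.8% of all probe sets. With the cutoff at TrpnX, a bacterial control transcript, all 10 were called, against 74.2%.

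Replicate 1 gave the lowest signal for most members. With each array centred on its median probe set, 6 of the 8 member probe sets above the mean cutoff were lowest on replicate 1, which was so for 19.3% of the 9693 probe sets above it. The 6 were 1 of Mdm2 and 1 each of Cdkn1a, Gadd45a, Gadd45b, Gadd45g and Btg1. The median SD over the arrays was 0.26 log2 units for these 8 and 0.17 for the 9693. The median difference of replicate 3 minus replicate 1 was 0.16 log2 units for the 8, against -0.08 for the 9693. Since each array is a single preparation, a difference between arrays has no test. Before centring, the direction of replicate 3 against replicate 1 was the same for each of the 10 member probe sets with quantile normalization, a common 75th percentile or a pseudocount of 16. The common 75th percentile shifted all probe sets alike and the pseudocount moved these differences little, so both could hardly change a direction.

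Other gene lists also differed between the same arrays. Immediate early and stress genes, which tissue handling is known to induce, were above the cutoff for 20 of 24, and their summed signal was 243980, 287390 and 367821 on replicates 1, 2 and 3. On replicate 3 minus replicate 1 their median difference was 0.89 log2 units, with 20 of 24 higher on replicate 3. That of Gadd45b was 1.44, or 2.70-fold, which lay among the larger differences of that list. Proximal tubule markers were above the cutoff for 3 of 21, with a summed signal of 15010, 54844 and 97663, and all 21 were higher on replicate 3 than on replicate 1. By mean signal alone, without the test that takes in the spread over arrays, 9 of these 21 lay above the cutoff. Principal cell markers were above it for 4 of 12, with sums of 12212, 17352 and 27220, and endothelial markers for 6 of 11, with sums of 16629, 28555 and 26024. Markers of fibroblasts and mural cells (1 of 13) summed to 3111, 6744 and 7175, and those of leukocytes (3 of 16) to 26485, 30876 and 32620. Most of the leukocyte sums came from Cd74 alone (23219, 25140 and 27671). Thin limb markers (5 of 7) had another order, with sums of 29277, 76903 and 44204 and replicate 2 the highest. Aqp1 (7795, 28878 and 15354) was counted in both the thin limb and the proximal tubule sums. Red blood cell markers (1 of 4) summed to 1756, 2329 and 6838, and intercalated cell markers (0 of 7) to 1567, 3346 and 3946. Markers of the distal convoluted and connecting tubule (1 of 7) summed to 3820, 4188 and 4208, and those of podocytes (3 of 7) to 3375, 4556 and 4446. Most of the distal sums came from Trpm7 (3173, 3113 and 3156), and most of the red blood cell sums from Hbb (1196, 1427 and 5881). In none of these lists was a marker at 0. Thick ascending limb markers summed to 271866, 264606 and 248143. For Actb, the 3′ control probe set exceeded the 5′ one, a difference that grows as RNA degrades, by log2 values of 1.48, 1.18 and 1.95. For Gapdh the log2 values were 0.51, 0.43 and 0.60. The part of these in the differences of Gadd45b and Cdkn1a between arrays was not tested. In bulk tissue, fewer cells of a type and less RNA per cell cannot be told apart.

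**Figure D3:**
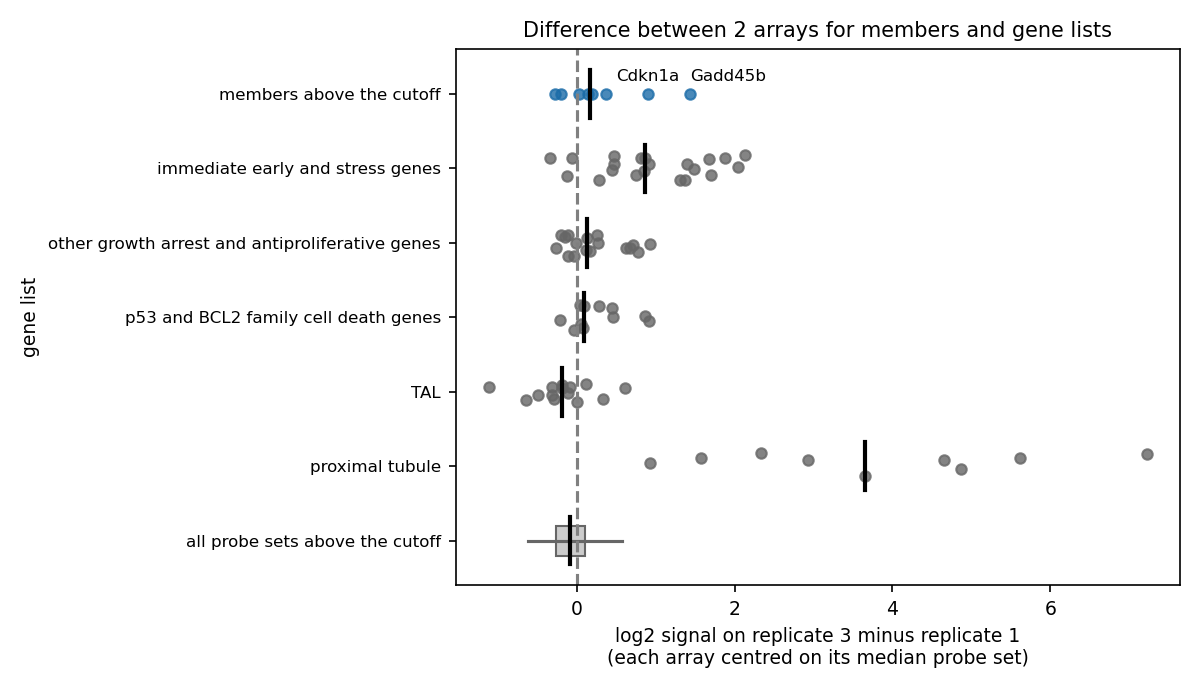
Log2 signal on replicate 3 minus replicate 1, each array centred on its median probe set, for members and listed genes that lay above the cutoff on average, 1 point per probe set. Black bars are medians, and the box and line at the bottom show the quartiles and the range from the 5th to the 95th percentile of 9693 probe sets. Gadd45b (1.44) and Cdkn1a (0.90) lie to the right of that line, as do most immediate early and stress genes and all proximal tubule markers shown. Not drawn are the other cell types and the lists of p53 regulators, other p53 targets, partners and proliferation genes. For their genes above the cutoff on average, these 4 lists had medians of -0.11, -0.04, -0.06 and 0.25.

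The genes with the most similar pattern over the 3 arrays were found for the 3 detected members with the largest SD, by the largest absolute difference between log2 signals centred on their own means, among 7298 genes above the cutoff on every array. For Gadd45b these were Smim24 (819, 1086 and 2311), the immediate early gene Ier5 (1319, 1688 and 3587) and the glutathione peroxidase gene Gpx2 (852, 1039 and 2386), with largest differences of 0.01, 0.03 and 0.07 log2 units. In all, 6 genes lay within 0.1 log2 units of Gadd45b. For Cdkn1a they were the transcription factor gene Ets1 (732, 1437 and 1458), the receptor tyrosine kinase antagonist gene Spry1 (902, 1784 and 1823) and the adhesion receptor gene Adgrl4 (599.9, 1178 and 1118), with largest differences of 0.03, 0.04 and 0.05 log2 units, and 15 genes lay within 0.1. For Ccng1 they were Nme2 (21181, 14496 and 19051), Nap1l3 (927, 637 and 841) and Isoc2b (5668, 3931 and 5147), each within 0.01, but 282 genes lay within 0.1. With 3 arrays, shared by all these genes, the likeness is a description only.

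The wider pathway was detected in part. Of 84 other genes in 5 lists of p53 regulators, targets, cell death genes, growth arrest genes and partners of the members, 52 or 61.9% were above the cutoff, against 48.1% of all genes. Their median lay 1.32 log2 units above the cutoff, and that of all genes 0.38 above it. Counts below are of genes by their brightest probe set, with the same limma test.

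Among 14 measured regulators of p53, 9 were above the cutoff and the list's median lay 1.74 log2 units above it. The ribosomal protein genes Rpl11 (30759 ± 1804) and Rpl5 (27163 ± 2083), whose products can bind MDM2, and the acetyltransferase gene Ep300 (5383 ± 437) had the highest signals. The lowest were the p53 relative Tp63 (65.8 ± 52.1) and Cdkn2a (43.0 ± 44.0), which encodes an inhibitor of MDM2. The other called genes were Usp7 (2.57 log2 units above the cutoff), Hipk2 (1.84), Mdm4 (1.82), Ppm1d (1.79), Kat5 (1.69) and Tp53bp1 (1.17). The list thus held called genes over a wide range of signal next to regulators that were not called.

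Other p53 targets of arrest and repair were near the average of all genes, with 7 of 17 above the cutoff and a median of 0.02. The highest of those called were Sfn, an epithelial arrest gene (1448, 2525 and 5998), Ccng2, the relative of cyclin G1 (2640 ± 485), and Sesn2, a stress sensor of nutrient signalling (2485 ± 269). The lowest were the repair polymerase gene Polk (40.2 ± 27.2) and Rprm (26.5 ± 18.9), a mediator of arrest before mitosis. The signal of Sfn on replicate 3 was far above that on replicate 1, so its level is given per array.

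Cell death genes were likewise called for 8 of 18, with a median 0.42 above the cutoff. The protective BCL2 relative Mcl1 (14399 ± 3206), the endoplasmic reticulum gene Ei24 (5946 ± 382) and the pro-death gene Bcl2l11 (2255 ± 255) had the highest signals. Bcl2 (181 ± 44.5) and the death receptor gene Fas (80.7 ± 63.9) had the lowest, and neither was called.

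Other growth arrest and antiproliferative genes were called for 17 of 21, with a median of 2.22. The BTG relative Tob1 (16681 ± 2333), the stress gene Ndrg1 (7638 ± 1939) and the kinase inhibitor gene Cdkn1b (7538 ± 982), which encodes p27, led the list. The kinase inhibitor gene Cdkn2b (41.9 ± 19.8) and Btg4 (8.36 ± 3.46), a BTG relative known from oocytes, had the lowest signals. Tob1 was thus called and Btg4 was not.

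Partners of the members were called for 13 of 16, with a median of 2.30. The mitochondrial channel genes Vdac2 (25685 ± 1846) and Vdac1 (17568 ± 1347), whose products meet BAX and its relatives at the outer membrane, and the cyclin gene Ccnd1 (12018 ± 3082) were highest. Ccnd2 (272 ± 174) and Cdk6 (48.8 ± 25.8) were lowest.

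Proliferation genes were called for 7 of 19, with a median of 0.21. The replication helicase genes Mcm2 (1644 ± 24.9) and Mcm6 (1301 ± 212) and the cycling marker Mki67 (1408 ± 427) were highest, and the kinetochore genes Bub1b (221 ± 115) and Cenpa (43.1 ± 19.6) lowest. On replicate 3 minus replicate 2, 17 of the 19 were higher on replicate 3. The share over all probe sets was not counted for this pair. With arrays centred, 18 of 19 were higher on replicate 3 than the mean of the other arrays, against 10195 of 20826 probe sets. On replicate 2 this was so for 2 of 19, against 9213 of 20826. Immediate early and stress genes had a median of 3.81, with the chaperone gene Hspa1a (43652 ± 4547), Egr1 (32270 ± 5918) and Fos (27769 ± 3238) highest and Fosl1 (392 ± 168) and Egr3 (114 ± 22.4) lowest.

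**Figure D4:**
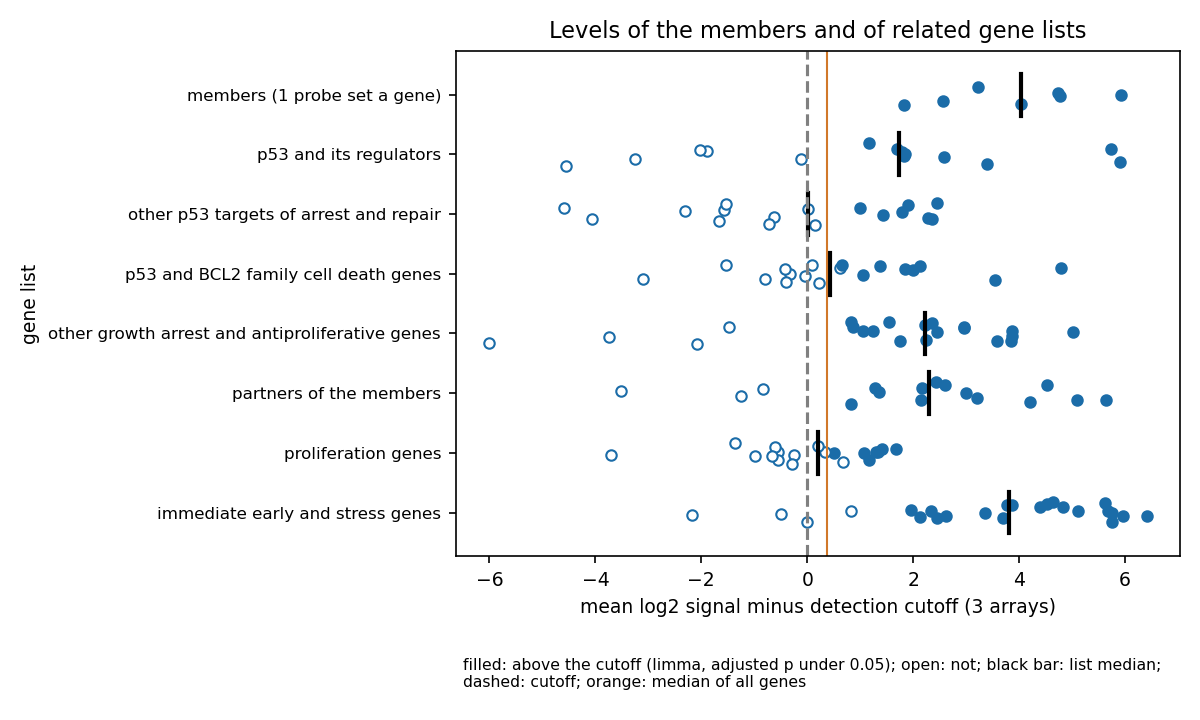
Mean log2 signal minus the detection cutoff over 3 arrays, 1 point per gene by its brightest probe set, for the 7 members and 7 related lists. Filled points are above the cutoff by limma, open points are not, black bars are medians, and the orange line is the median of all genes at 0.38. The members lie between 1.84 and 5.91, and the p53 targets of arrest and repair have their median at 0.02.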

How the data were processed

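Transcripts were measured in 3 mTAL samples of 1 group on Affymetrix arrays with biotin-labelled cRNA, per the labels' protocols. The values the authors deposited are linear intensity signals, 1 for each probe set on each array. How they were summarised and scaled is not given in the sources used here. Mean signals left after trimming 2% at each end were 1000.4, 1000.3 and 1000.3, so the arrays share 1 overall scale. Of 31099 probe sets, 57 were controls, 20826 had 1 gene symbol, 436 several and 9780 none, and the identifiers of 20758 were found in the RefSeq table of GRCr8, which changed 0 symbols.

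Log2 was taken without a pseudocount. Each array's cutoff, the 95th percentile of 73 measured genes of other tissues (80 listed), was subtracted, and the difference was tested with limma 3.58.1 in R 4.3.3 (lmFit, eBayes, one-sided) with Benjamini-Hochberg adjustment at 0.05. The procedure was tested on simulated data. The number of arrays limits the precision. The main cutoff lay between Lhb (369 ± 71.2) and Mbp (699 ± 50.8), so it rests on few genes.

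The members and all lists were chosen with earlier results of these data known. Of 355 list entries, 321 matched a measured gene. The text names all members, the 3 called genes with the highest and the 2 with the lowest signal of the pathway, proliferation and immediate early lists, and the genes of most similar pattern. Umod, Egf and Slc12a1, the highest thick ascending limb markers, and Myh1 and Cela1 are also from this rule. So are Cd74, Trpm7, Hbb and Aqp1, each named for its part in the sums of a marker list. Of the other markers in these lists only counts and sums are given. Lhb, Mbp and the genes named under other observations were chosen after their values were seen.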

Additional observations from a re-analysis of the deposited data

How the results depend on the processing

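With each array left out in turn, 8 member probe sets were called every time, all probe sets above the cutoff numbered 7429 to 7630, genes of the wider pathway 47 to 52, and the median member level relative to the median probe set, 3.13 log2 units with all arrays, was 3.03 to 3.21. The cutoff had the largest effect. At percentile 99 of the genes of other tissues 3 member probe sets, 715 of all probe sets and 7 pathway genes were called, the levels relative to the cutoff turned to -1.25 and -2.11 for Mdm2 (1383288_at and 1384427_at) and to -0.53 for Cdkn1a (1388674_at), and Ccng1 (0.14) and Gadd45b (0.94) were no longer called. The lists then had 2 regulators, 0 targets, 1 cell death gene, 1 growth arrest gene, 3 partners, 0 proliferation genes and 8 immediate early genes (limma). At the 90th percentile the Mdm2 probe set 1383485_at (0.59) and the Cdkn1a probe set 1387391_at (0.35) turned positive without being called, and 15 cell death and 15 proliferation genes were called. At TrpnX these 2 probe sets lay at 2.55 and 2.31, and 15448 probe sets, 15 targets, 17 cell death and 18 proliferation genes were called. The median member level was 3.65 with 1 probe set a gene and 1.74 among probe sets above the cutoff on every array, settings in which other probe sets enter both medians. Of 199 other values for single probe sets and lists, 178 kept their direction and call, or stayed within 1.5 times the count. The number of arrays and of other-tissue genes near the cutoff limit every call.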

Other observations

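Median differences of replicate 3 minus replicate 1 were positive for growth arrest and cell death genes. They were negative for the other p53 targets and the regulators, as for all probe sets above the cutoff. Relative to the median probe set of the array, 11 of 21 growth arrest genes were higher on replicate 3 than on replicate 1. Their median difference was 0.12 log2 units. The same held for 6 of 17 other p53 targets of arrest and repair (-0.06) and 6 of 14 regulators (-0.16). Of the cell death genes, 14 of 18 were higher on replicate 3 (0.24). Among the 9693 probe sets above the cutoff on average, 37.8% were higher on replicate 3 (-0.08). Of list genes above it in the same way, 10 of 17 growth arrest genes (0.13) and 9 of 11 cell death genes (0.09) were higher. So were 4 of 9 other p53 targets (-0.04) and 4 of 9 regulators (-0.11). The genes named next were picked from the growth arrest genes and the other p53 targets after their values were seen. They do not stand for their lists. Before centring, each had its highest signal on replicate 3 and its lowest on replicate 1. Relative to the median probe set, Ddit3 was lowest on replicate 2. Ppp1r15a, which encodes a phosphatase subunit that restarts translation after stress, had signals of 4124, 6733 and 8123 on replicates 1, 2 and 3. Ddit3, the transcription factor gene of the endoplasmic reticulum stress response also called CHOP, had signals of 2284, 2370 and 4032. Cdkn1c, which encodes the kinase inhibitor p57 and is also a podocyte marker, had signals of 953, 1123 and 1621. The polo-like kinase gene Plk2, a p53 target, had signals of 279, 695 and 920 and was not called above the cutoff (limma adjusted p = 0.83). Its relative Plk3 had signals of 97.3, 185 and 284, below the cutoff on each array.

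Genes of the retinoblastoma family, which hold cells out of the cycle, differed in their order of arrays. Rb1 had signals of 2198, 3073 and 2109, and Rbl2 had 2412, 2730 and 2069, both highest on replicate 2. Rbl1 had 1083, 918 and 1213, highest on replicate 3 and lowest on replicate 2. The forkhead gene Foxo3, a regulator of arrest genes, likewise had its highest signal on replicate 2 (6372, 9556 and 6537). These genes were also chosen after their values were seen, and differences between single arrays have no test.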
